A study of Homo sapiens with 2 samples.

Results

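The glycolysis and gluconeogenesis genes were examined in HepG2 cells treated with hawk tea extract (HTE). They were 40 genes chosen by name: the transporters that carry glucose and lactate across the plasma membrane, the enzymes of glycolysis, the enzymes that make and remove fructose 2,6-bisphosphate, the enzymes particular to gluconeogenesis, and the pyruvate dehydrogenase kinases. Probes were assigned to them through the RefSeq transcript that the array design gives. A probe was matched for 39 of the 40 genes and 37 were measured, out of 15631 named genes with a signal well above background on at least 1 array.

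HepG2 is an established human hepatocellular carcinoma line that retains many functions of hepatocytes. It was grown in high-glucose medium with fetal bovine serum. The control cells received dimethyl sulfoxide (DMSO), the solvent, and the treated cells received HTE, an extract of a herbal tea, both for 24 h. There was 1 one-colour Agilent array per condition, so the arrays give no spread between cultures, no test between the conditions was possible, and no p value is reported. The labels give a dose of 200 µg/mL, whereas the name of the HTE array carries 300. The text of the study also gives the higher of these doses for the array. All 12 hepatocyte markers examined, albumin and transthyretin among them, were well above background on both arrays.

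Glycolysis converts glucose to pyruvate in the cytosol, and most of its steps run in either direction. The steps of hexokinase, phosphofructokinase and pyruvate kinase are practically irreversible, and gluconeogenesis goes around them with enzymes of its own, which the liver and kidney use to release glucose in fasting. Many tumour lines express hexokinase 2, phosphofructokinase P, the M form of pyruvate kinase and lactate dehydrogenase A, whereas hepatocytes use the L-type pyruvate kinase.

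HTE-treated cells had 2-fold or higher signals for PC, PCK2, ALDOC and PFKFB1 and a 2-fold or lower signal for SLC2A3. Within 1.5-fold lay 7 of the 8 measured genes of upper glycolysis and 10 of the 11 of lower glycolysis. The share of all named genes within 1.5-fold was 78.2%. Promoter sequence is shown for the 4 genes with the higher signals, and for LDHA and HK2, which were within 1.5-fold and hold several of the short motifs searched. SLC2A3 has no entry in the sequence table. Each line gives the 250 bases before a RefSeq transcription start in GRCh38.p14, 5′ to 3′ on the strand of the gene. Capitals mark, on either strand, CACGTG (the E-box bound by the MYC and ChREBP families), ACGTG (the core of the hypoxia response element), GCGTG (the core of the xenobiotic response element), TGACG (part of the cAMP response element), TGATGNAA (the core of the C/EBP-ATF response element) and TCACNCCA (a sterol response element).

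PC, chr11:66958384-66958633, minus strand: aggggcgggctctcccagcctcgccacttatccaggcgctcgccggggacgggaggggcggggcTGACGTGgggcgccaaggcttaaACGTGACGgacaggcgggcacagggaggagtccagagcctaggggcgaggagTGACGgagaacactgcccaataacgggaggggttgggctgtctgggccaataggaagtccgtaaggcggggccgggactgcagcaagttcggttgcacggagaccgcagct
ALDOC, chr17:28576896-28577145, minus strand: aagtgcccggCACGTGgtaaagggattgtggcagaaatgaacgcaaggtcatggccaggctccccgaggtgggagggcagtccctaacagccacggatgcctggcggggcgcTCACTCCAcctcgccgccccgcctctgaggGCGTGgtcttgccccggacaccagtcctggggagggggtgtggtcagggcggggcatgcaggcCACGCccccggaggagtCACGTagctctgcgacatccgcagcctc
PCK2, chr14:24094061-24094310, plus strand: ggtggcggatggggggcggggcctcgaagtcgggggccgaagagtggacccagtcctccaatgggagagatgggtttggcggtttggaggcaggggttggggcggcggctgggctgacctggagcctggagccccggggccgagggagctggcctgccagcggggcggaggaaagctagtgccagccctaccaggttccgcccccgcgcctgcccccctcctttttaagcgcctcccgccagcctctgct
PFKFB1, chrX:54994189-54994438, minus strand: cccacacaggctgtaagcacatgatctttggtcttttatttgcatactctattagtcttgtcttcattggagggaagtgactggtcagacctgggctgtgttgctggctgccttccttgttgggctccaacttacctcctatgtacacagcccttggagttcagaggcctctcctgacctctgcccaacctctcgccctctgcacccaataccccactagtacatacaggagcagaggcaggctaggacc
LDHA, chr11:18394313-18394562, plus strand: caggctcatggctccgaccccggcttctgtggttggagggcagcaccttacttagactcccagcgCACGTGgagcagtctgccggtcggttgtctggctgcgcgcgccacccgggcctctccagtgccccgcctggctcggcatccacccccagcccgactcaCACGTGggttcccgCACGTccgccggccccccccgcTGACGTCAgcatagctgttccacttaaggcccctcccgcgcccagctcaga
HK2, chr2:74834920-74835169, plus strand: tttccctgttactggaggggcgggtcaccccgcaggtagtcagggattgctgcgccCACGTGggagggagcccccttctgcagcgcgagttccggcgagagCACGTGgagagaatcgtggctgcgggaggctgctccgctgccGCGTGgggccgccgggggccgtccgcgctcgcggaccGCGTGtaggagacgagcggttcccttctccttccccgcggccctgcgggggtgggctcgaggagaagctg

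The window of PC held 2 copies of ACGTG and 3 of TGACG, partly overlapping, and its 2 other windows held none of the 6 motifs. That of ALDOC held 1 CACGTG, 3 ACGTG, 2 GCGTG and 1 TCACNCCA, where each CACGTG counts as an ACGTG on both strands. No copy of any of the 6 motifs was found in the only window of PCK2 or in the 2 windows of PFKFB1. LDHA, by contrast, held 2 CACGTG, 5 ACGTG and 2 TGACG, and HK2 held 2 CACGTG, 4 ACGTG and 2 GCGTG, each in the shown window of 2. From which start a transcript seen by a probe comes was not tested.

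Windows were listed for 36 of the 40 genes, 71 windows in all, several of them overlapping. Windows were counted and not genes, and overlapping windows of a gene can share a copy. CACGTG was present in 11 of the 71 (15.5%), from 9 genes, and in 6.34% of the 35116 windows of all genes. ACGTG was present in 25 (35.2%), from 20 genes, and in 18.5% of all windows. The other motifs were nearer the general share: 26.8% against 32.2% for GCGTG, 19.7% against 21.2% for TGACG, 4.23% against 3.14% for TGATGNAA and 2.82% against 3.20% for TCACNCCA. Among the genes measured on both arrays, the 18 with an ACGTG window had a median log2 ratio, HTE over DMSO, of 0.07, with 11 above 0 and 7 below. The 14 without one had a median of 0.15, with 9 above 0 and 5 below. For CACGTG the medians were -0.12 over 8 genes and 0.10 over 24 genes. The letters were thus found in genes with high ratios and in genes near 0, and their presence in a window does not show that a factor binds there.

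Signals are given as log2 of the processed signal relative to the 75th percentile of the array, so that 0 is a signal at that percentile. They compare the same probe between arrays and not one gene with another. Of the 37 measured genes, 36 were well above background on both arrays. FBP1 was above it on the DMSO array only, and FBP2 and G6PC1 on neither. ALDOA, aldolase A, had no probe matched through the gene table and was not analysed here.

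At 2-fold or more, 4 of the 37 genes (10.8%) were higher with HTE, against 4.93% of all named genes. In the other direction, 1 of 37 (2.70%) was lower, against 2.81% of all named genes. At a limit of 1.5-fold, 6 genes (16.2%) were higher against 12.4%, and 3 (8.11%) were lower against 9.42%. At 3-fold, only PFKFB1 was higher, against 1.58% of all named genes, and only SLC2A3 was lower, against 0.505%. The counts of lower genes at 1.5-fold and 2-fold were thus near the share of all named genes. The median log2 ratio was 0.07, with quartiles of -0.24 and 0.44, beside a median of 0.00 and quartiles of -0.25 and 0.30 for all named genes. A ratio above 0 was found for 21 genes (56.8%) and below 0 for 15, against 49.3% of all named genes above 0. Within 1.5-fold lay 28 genes (75.7%), as did 78.2% of all named genes.

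These directions are relative to the bulk of the genes on each array. When the arrays were scaled instead to the 10 E1A spike-in probes, RNA added by the experimenter, the median of all named genes moved by -1.06 on the log2 scale, no member was 2-fold higher, 20 were 2-fold lower and 3 were above 0. Unscaled, the spike-in probes were higher on the HTE array by a mean log2 ratio of 0.91, ranging from 0.20 to 1.57 among the probes. Relative to the median of all named genes, the median of the glycolysis and gluconeogenesis genes was 0.05 under that scaling and 0.07 under the one used here. The cause of the shift under the spike-in scaling was not tested, and the arrays do not show the RNA per cell or the number of cells. The study reports a loss of HepG2 viability, which it calls slight, at the dose it gives for the array. For any gene, less RNA per cell and fewer of the cells that make it cannot be told apart in RNA from a whole culture.

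**Figure D1:**
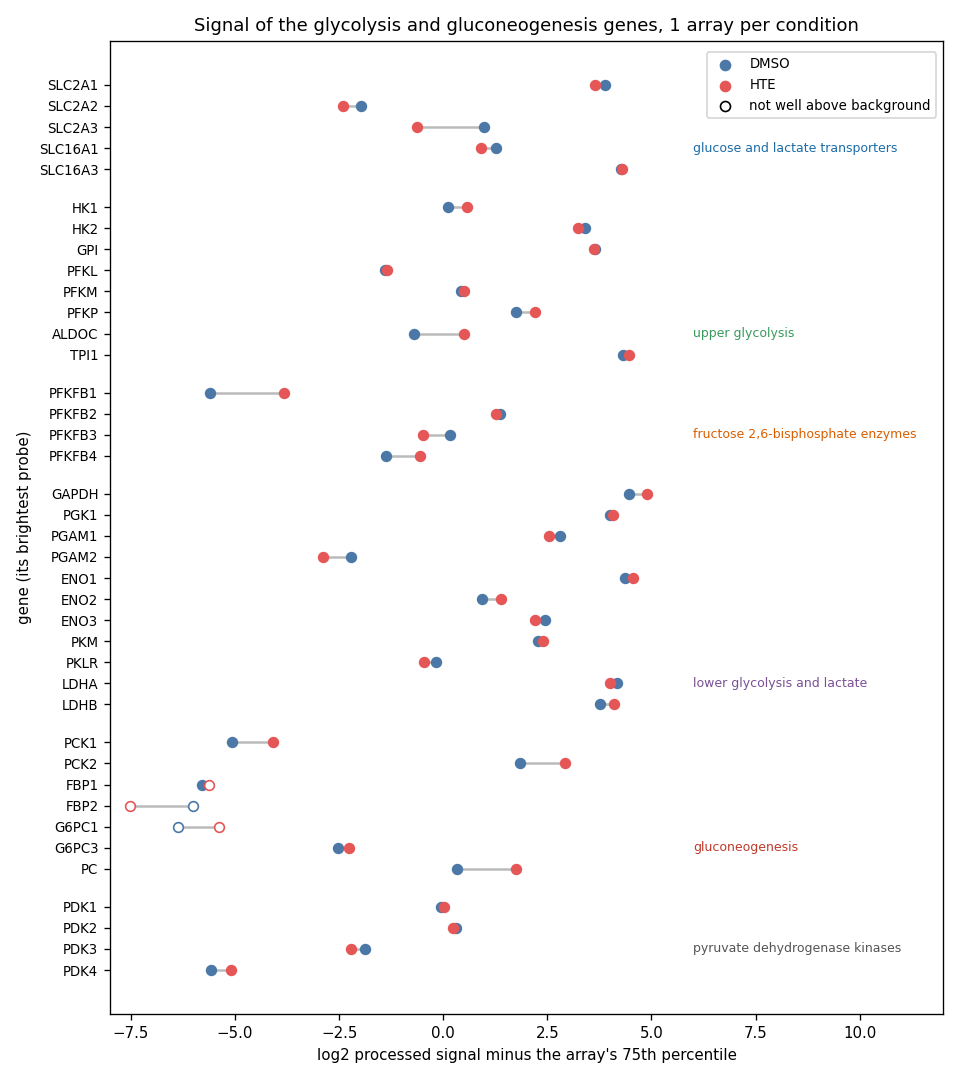
Signal of 39 genes with a matched probe, as log2 processed signal minus the 75th percentile of the array, on the DMSO array (blue) and the HTE array (red), 1 array each and the brightest probe of each gene. Open circles were not well above background. The widest gaps between filled circles are those of PFKFB1, SLC2A3, PC, ALDOC and PCK2.

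Among the transporters, SLC2A3, also known as GLUT3, a glucose carrier with a high affinity that is best known from neurons, had the largest difference. Its level was 0.98 with DMSO and -0.64 with HTE, from processed signals of 7933 and 2299. This is a log2 ratio of -1.62 with a software error of 0.20, or 3.06-fold lower. The software error is the one that the error model of the scanner software assigns to a spot, and it does not hold the spread between cultures. A second and dimmer probe of SLC2A3 went from -2.80 to -4.53, a log2 ratio of -1.72. Both probes thus gave nearly the same difference.

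SLC2A1 (GLUT1), the glucose carrier of most proliferating cells, had one of the brighter probes and went from 3.89 to 3.66, a log2 ratio of -0.24. SLC2A2 (GLUT2), the low-affinity carrier of hepatocytes, was dim, at -1.96 and -2.40, with a ratio of -0.44. The lactate carrier SLC16A1 (MCT1) had levels of 1.28 and 0.91, a ratio of -0.37. SLC16A3 (MCT4), which exports lactate from glycolytic cells, stood at 4.27 and 4.30, a ratio of 0.03. The 5 transporters centred on -0.37 (median log2 ratio), with 4 of 5 below 0 and, under the spike-in scaling, all 5. Above 0 were 20% of them, against 49.3% of all named genes.

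In upper glycolysis, from the phosphorylation of glucose to the triose phosphates, ALDOC stood apart. ALDOC encodes aldolase C, a form of the enzyme that splits fructose 1,6-bisphosphate and is best known from brain. Its level was -0.71 with DMSO and 0.49 with HTE, from signals of 2452 and 5015, which is a log2 ratio of 1.20 with a software error of 0.20, or 2.30-fold higher.

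The hexokinases phosphorylate glucose on entry. HK1 had levels of 0.13 and 0.57, a log2 ratio of 0.44, whereas HK2, the form induced in many tumours, had 3.41 and 3.24, a ratio of -0.17. The second probe of HK2 was well above background with DMSO only. GPI, which interconverts glucose and fructose 6-phosphate, had a ratio of -0.03. Of the phosphofructokinases, the enzymes of the committed step, PFKL and PFKM had ratios of 0.06 and 0.07, and PFKP went from 1.75 to 2.21, a ratio of 0.46, with 0.51 at its second probe. TPI1, triose phosphate isomerase, had levels of 4.33 and 4.47 and a ratio of 0.14, with 0.16 at its second probe. The median of the 8 genes of this group was 0.10. Above 0 were 6 (75%, against 49.3% of all named genes) and 2 were below. The spike-in scaling left 1 above 0.

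The 4 PFKFB genes encode enzymes with a kinase and a phosphatase activity that set the level of fructose 2,6-bisphosphate, an activator of phosphofructokinase and an inhibitor of fructose 1,6-bisphosphatase. Their log2 ratios spread from -0.63 to 1.79. PFKFB1, the liver form, was dim, at -5.61 with DMSO and -3.82 with HTE, from signals of 82.4 and 252.9. Its log2 ratio of 1.79 (software error 0.34) or 3.45-fold was the largest of all 37 genes, but was 1.08 after normexp background correction. The DMSO level lies only a little above -5.91, the lowest level that counted as well above background on that array. The normexp correction adds an offset of 50 to each signal, which by itself shrinks the ratio of a dim probe.

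PFKFB4, a form induced by hypoxia, went from -1.38 to -0.57, a log2 ratio of 0.81 or 1.76-fold. PFKFB3, a form with a strong kinase activity, went the other way, from 0.15 to -0.48, a ratio of -0.63 or 1.55-fold lower. Its dimmer probe went from -3.14 to -4.19, a ratio of -1.04, past the 2-fold limit. PFKFB2, the heart form, gave 1.37 and 1.27 at its brighter probe, a ratio of -0.10, and -4.66 and -3.78 at its dimmer probe, a ratio of 0.88. The gap of 0.98 between them was the widest among the 11 genes with 2 probes. The group thus had 2 genes above 0 and 2 below.

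**Figure D2:**
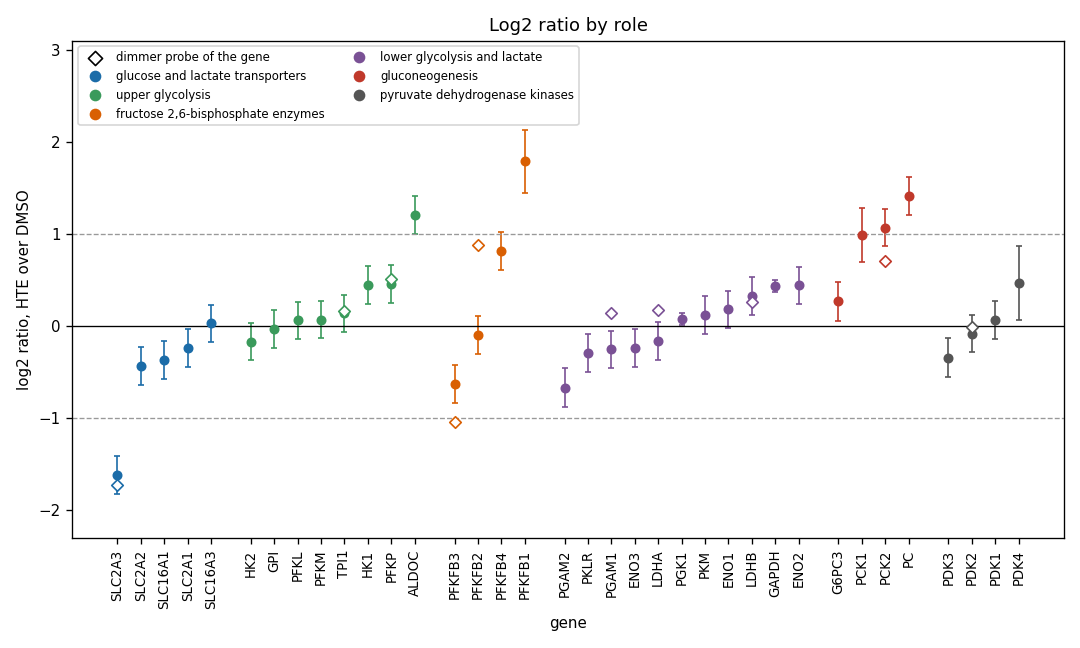
Log2 ratio of HTE over DMSO for the 36 genes well above background on both arrays, ordered within each role. Bars are plus and minus 1 software error of the brightest probe, which covers the array only; diamonds are dimmer probes well above background on both arrays, and dashed lines mark 2-fold. PC, PCK2, ALDOC and PFKFB1 lie above the upper line and SLC2A3 below the lower one.

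In lower glycolysis, which yields ATP, pyruvate and lactate, none of the 11 genes reached 2-fold in either direction. GAPDH, glyceraldehyde 3-phosphate dehydrogenase, was printed in 10 spots on each array and could be measured more closely. Its level was 4.47 ± 0.067 (SD over 10 spots) with DMSO and 4.90 ± 0.035 with HTE. The spots did not overlap between the arrays, and their log2 ratios ran from 0.29 to 0.54, with a mean of 0.43 and an SD of 0.075. Spots on 1 array share its RNA and labelling and are not replicates of the treatment. Other processing choices gave 0.26 to 0.43, except the spike-in scaling, with -0.65. GAPDH was also the gene to which the qRT-PCR of the study was normalised.

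PGK1, phosphoglycerate kinase, makes the first ATP of the pathway and had 10 spots as well, of which 9 were usable on both arrays. Its level was 3.999 with DMSO and 4.078 with HTE, and the spot log2 ratios ran from 0.01 to 0.18, with an SD of 0.052. The highest spot with DMSO and the lowest with HTE nearly met, both at 4.04. Over 688 probes with at least 5 usable spots, the median SD of the spot log2 ratio was 0.051, so GAPDH differed between the arrays by several times the spread among spots and PGK1 by little more than it.

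**Figure D3:**
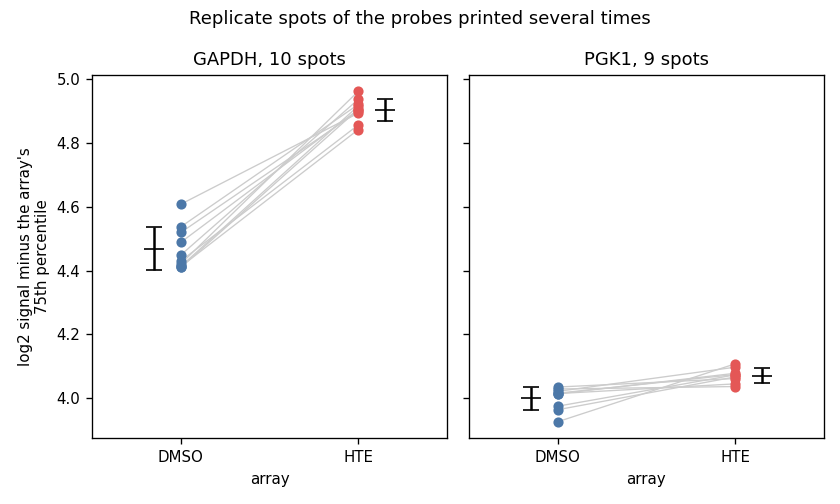
Replicate spots of GAPDH (10) and PGK1 (9) on the DMSO and HTE arrays, as log2 signal minus the 75th percentile of the array, with lines joining the same spot position and black bars for the mean and SD over spots. All GAPDH spots are higher on the HTE array, with a mean log2 ratio of 0.43, and those of PGK1 nearly meet, at 4.04.

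The other enzymes of lower glycolysis followed no common direction. The phosphoglycerate mutases PGAM1 and PGAM2, which move the phosphate group before the enolase step, had log2 ratios of -0.25 and -0.67. The second probe of PGAM1 gave 0.14, opposite in sign, and PGAM4, which is nearly identical to PGAM1 in sequence, gave -0.08. PGAM2, the muscle form, was dim, going from -2.22 to -2.89. Among the enolases, ENO1 had levels of 4.37 and 4.55 with a ratio of 0.18. ENO2, the form of neurons, had 0.93 and 1.38, a ratio of 0.44, and ENO3, the muscle form, had 2.45 and 2.21, a ratio of -0.24.

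Both pyruvate kinase genes were expressed. PKM, whose forms predominate in proliferating cells and muscle, had levels of 2.26 and 2.39, a log2 ratio of 0.12. PKLR, which encodes the liver form, had -0.18 and -0.47, a ratio of -0.29. For LDHA, the lactate dehydrogenase subunit abundant in glycolytic cells, levels were 4.161 and 3.9995 at the brighter probe, a ratio of -0.16, and the other probe gave 0.17. LDHB, the subunit abundant in heart, gave 0.33 and 0.26 at its 2 probes. Ratios opposite in sign between the probes of a gene were found for 3 of the 11 genes with 2 probes.

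The enzymes of gluconeogenesis had the highest median of the 6 roles, 0.99 over 5 measured genes with FBP1 entered at 0. None of the 5 was below 0, and 80% were above it, against 49.3% of all named genes. This median is the ratio of PCK1, whose probe was dim. The group median was 0.66 with normexp correction and -0.09 with the spike-in scaling. PC, pyruvate carboxylase, converts pyruvate to oxaloacetate in mitochondria, the entry step that also refills the citric acid cycle. Its level was 0.33 with DMSO and 1.74 with HTE, from signals of 5051 and 11932. The log2 ratio of 1.41 (software error 0.20) is 2.66-fold higher and lay between 1.24 and 1.52 under the other choices, apart from 0.33 with the spike-in scaling.

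PCK2, the mitochondrial phosphoenolpyruvate carboxykinase, turns oxaloacetate into phosphoenolpyruvate. It went from 1.85 to 2.92, signals of 14475 and 26982, a log2 ratio of 1.07 (software error 0.20) or 2.10-fold. The second probe went from 0.42 to 1.12, a ratio of 0.70, below 2-fold. PCK2 itself was just below the limit after normexp correction (0.99), with median scaling (0.99), without scaling (0.90) and as a mean over its probes (0.89), and was -0.01 with the spike-in scaling.

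PCK1, the cytosolic form that is strongly induced in fasting liver, was dim, at -5.08 and -4.08, from signals of 119.2 and 210.4. Its log2 ratio of 0.99 (software error 0.29), or 1.99-fold, was just short of the limit and was 0.66 after normexp correction. The study reports from qRT-PCR in HepG2 cells that HTE lowered PEPCK and G6Pase. It does not say which PEPCK form was measured, and the array ratios of PCK1 and PCK2 were above 0. G6PC3, the ubiquitous glucose 6-phosphatase subunit, had levels of -2.53 and -2.26, a ratio of 0.27. The hepatocyte enzymes at the end of the pathway gave almost no signal. FBP1, fructose 1,6-bisphosphatase of liver, had signals of 73.0 and 72.3 and was well above background with DMSO only, so no fold is given. FBP2, the muscle form, had 62.3 and 19.5, and G6PC1, the glucose 6-phosphatase of liver, 48.6 and 85.9, none of them well above background. The higher values of the group were therefore those of PC and both carboxykinases, and with the spike-in scaling 4 of the 5 genes were below 0.

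The pyruvate dehydrogenase kinases restrain the entry of pyruvate into the citric acid cycle. PDK1, a form induced by hypoxia, had a log2 ratio of 0.07, and PDK2 had -0.08, with -0.01 at its second probe. PDK3 went from -1.88 to -2.22, a ratio of -0.34. PDK4, the form induced in fasting, was dim, at -5.57 and -5.10, and its ratio of 0.47 was close to its software error of 0.40. All 4 were thus within 1.5-fold, as were 78.2% of all named genes.

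The precision differed among genes. The software error of the log2 ratio had a median of 0.20 over the genes and reached 1.49 for the dimmest, FBP2. Of the 36 genes well above background on both arrays, 14 differed from 0 by more than 2 software errors. That count was not made for all named genes, so it describes precision and is not a result about the pathway. The 2 probes of a gene differed by 0.02 to 0.98, with a median of 0.31, and by over 1 in none of the 11 genes. The processed signal of several members, GAPDH, PGK1, ENO1, LDHA and TPI1 among them, may hold signal of related transcripts, since these genes have many processed pseudogenes; their part was not tested.

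**Figure D4:**
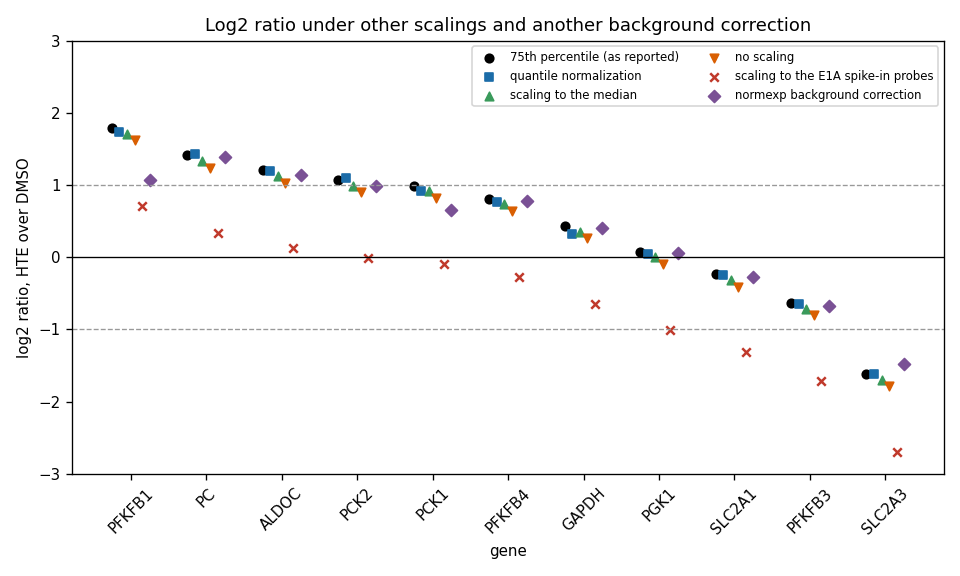
Log2 ratio of HTE over DMSO for 11 genes with the 75th percentile scaling used here, with 4 other ways of scaling the arrays and with normexp background correction; dashed lines mark 2-fold. The spike-in scaling shifts every gene downward by the same amount, to -0.65 for GAPDH. Normexp correction, which adds an offset of 50 to each signal, gives lower ratios for the dim genes PFKFB1 (1.08) and PCK1 (0.66).

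Other genes of glucose metabolism were examined in 8 lists. Of 24 further glycolysis and gluconeogenesis genes, 18 were measured, 9 above 0 and 9 below, with a median log2 ratio of 0.02. At least 2-fold higher were 2 (11.1%), against 4.93% of all named genes. GCKR, a regulatory protein of hepatocytes, went from -1.49 to 0.24, a ratio of 1.73. SLC2A6, a glucose transporter of lysosomes, went from 1.21 to 2.48, a ratio of 1.27. Its other probe, the brighter one with DMSO, went from 1.27 to 1.51, a ratio of only 0.24. The probe used was thus the brightest only through its HTE signal. HK3, PGK2, GAPDHS, G6PC2 and SLC16A7 were among the genes not well above background on either array.

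The pathways that branch off showed no gene at 2-fold. Among 10 genes that bring pyruvate into mitochondria and oxidise it, 3 were above 0 and 7 below (median -0.19). The share above 0 was 30%, against 49.3% of all named genes. The ratios ran from PDHX at -0.56 to PDP1, a phosphatase that opposes the pyruvate dehydrogenase kinases, at 0.62. The 9 genes of the pentose phosphate pathway had a median of 0.16, from RPIA at -0.75 to PGLS at 0.56. Of 15 enzymes of glycogen and galactose metabolism, 14 were measured, with a median of 0.11, from glycogen synthase GYS1 at -0.60 to GALT at 0.60. The 9 genes of glycerol, fructose and polyol metabolism had a median of -0.24, from ketohexokinase KHK at -0.74 to GFPT2 at 0.52.

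Genes that hypoxia-inducible factor (HIF) is known to activate outside glycolysis were listed because many members are HIF targets too. Of 16 such genes 15 were measured, 14 above 0 and 1 below, with a median of 0.42. The share above 0 was 93.3%, against 49.3% of all named genes. It includes P4HA1 (0.02), EGLN1 (0.06), BNIP3 (0.10) and VEGFA (0.15), whose ratios were smaller than their software error of 0.20. The other probe of VEGFA gave -0.11. The share at least 2-fold higher was 20%, against 4.93%. At least 2-fold higher were BNIP3L, a mitophagy receptor, at 1.38 (0.93 at its other probe), NDRG1 at 1.33 and carbonic anhydrase CA9 at 1.20. CA9 was dim, at -4.42 with DMSO and -3.23 with HTE. The lowest ratio was that of ADM, -0.07.

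Of 13 regulators of gluconeogenic genes 12 were measured, 7 above 0 and 5 below, with a median of 0.09. The share at least 2-fold lower was 16.7%, against 2.81% of all named genes. Both genes at least 2-fold lower are transcription factors of hepatocytes that act on gluconeogenic genes. CEBPA went from 2.77 to 1.60, a log2 ratio of -1.16, and FOXO1, the factor that insulin signalling keeps out of the nucleus, from -0.25 to -1.33, a ratio of -1.08. CEBPB had the highest ratio, 0.65. Among 10 regulators that sense glucose or drive glycolysis, 9 were above 0 (90%), against 49.3% of all named genes. Their median was 0.30 and none reached 2-fold, from EPAS1 at -0.00 to ARRDC4, a target of the glucose-sensing factor ChREBP, at 0.74. Its better known relative TXNIP had 0.42, HIF1A 0.11 and MYC 0.31. MLXIP counted as above 0 at 0.002, but its other probe gave -0.62. MLX had 0.13, with -0.06 at its other probe. The other probes of HIF1A and ESRRA gave 0.43 and 0.87.

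**Figure D5:**
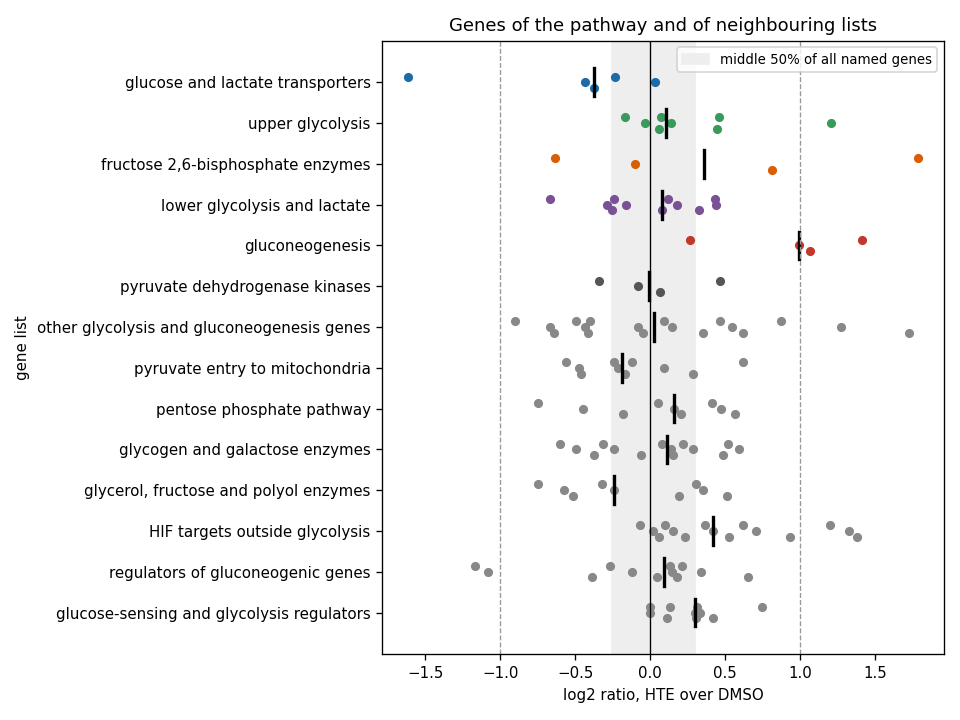
Log2 ratio of HTE over DMSO for the genes well above background on both arrays, 1 point per gene, in the 6 roles (coloured) and the 8 neighbouring lists (grey). Black bars are medians over the measured genes, with FBP1 entered at 0 for gluconeogenesis; the grey band holds the range between the quartiles of all named genes, from -0.25 to 0.30, and dashed lines mark 2-fold. Gluconeogenesis has the highest median, 0.99, which is the ratio of the dim PCK1, and the transporters the lowest, -0.37.

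Marker lists were counted for other cell types. The 12 hepatocyte markers had a median log2 ratio of 0.11, with FGA lowest at -1.11. Of 6 fibroblast markers, COL1A1, COL3A1 and PDGFRB were above background on at least 1 array, with levels from -6.43 to -1.96, and COL1A2, LUM and DCN were not. Of 6 leukocyte markers, 4 were above background, among them CD14, which hepatocytes also express, at -0.60 and -2.37, while CD3E was not and LYZ had no matched probe. Their part in the results above was not tested.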

How the data were processed

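Total RNA of HepG2 cells was profiled on 1-colour (Cy3) Agilent SurePrint G3 arrays, 1 for DMSO and 1 for HTE. The authors deposited the scanner output of each array, in which the processed signal is an intensity that the software had background-subtracted and detrended but not scaled between arrays. The file headers name Feature Extraction 11.5.1.1, and the submitters' processing notes name version 10.7. Of 58717 non-control spots, 60.6% were well above background with DMSO and 56.6% with HTE, and 0 were saturated. The number of arrays limits the precision.

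Control and outlier spots (440 and 459) were left out, and log2 of the signal minus the 75th percentile of each array was taken. Replicate spots gave 1 mean for each probe. The filter asked that, on 1 array or both, a share of 0.5 or more of the spots be flagged as well above background. Where this held on a single array, the ratio was a bound, taken as 0 if under 1-fold. Probes were named by unversioned RefSeq accession (28146 of 50532 matched) through the GRCh38.p14 gene table, and the brightest probe stood for a gene. The headers name hg19, so no probe positions are given. A difference was counted from 2-fold, the cutoff in the methods of the study. All members are described. Some other genes were named after their values were seen (TXNIP, HIF1A, MYC, PGAM4, P4HA1, EGLN1, BNIP3, VEGFA, MLXIP, MLX, ESRRA, the genes without signal). The rest are named where at least 2-fold, or highest or lowest in their list. A few genes that this rule would name are not reported here. Members and lists were chosen with earlier results of these data known.

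The alternatives were normexp correction (limma 3.58.1, offset 50, with median in place of mean spot signals), quantile normalization, scaling to the median or to spike-in probes, no scaling, keeping outlier spots, the measured value of a dim probe instead of its bound, the filter asked of both arrays, the mean over probes, subtraction of the median of neighbouring spots, cutoffs of 1.5-fold and 3-fold and, added after seeing the data, the dimmer probe. The steps were tested on simulated data, in Python 3.11.15 (pandas 2.3.3, numpy 2.4.6, matplotlib 3.10.9) and R 4.3.3. The other experiments of the study were not analysed here.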

Additional observations from a re-analysis of the deposited data

How the results depend on the processing

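No paired analysis was possible because there was 1 array per condition, and no array could be left out. Scaling to the E1A spike-in probes changed the most: 0 members were 2-fold higher, 20 were 2-fold lower and 3 were above 0, the median was -1.01, PCK2 had a log2 ratio of -0.0118, and 98 named genes were 2-fold higher and 8739 lower, against 770 and 439. The cause was not tested. The median of the members was -0.0104 with scaling to the median and -0.10 without scaling. Among called named genes the share that was higher was 63.7%, against 54.8% with scaling to the median, 43.0% without scaling, where the median of all named genes moved by -0.15, and 55.4% with the own value of dim probes. A cutoff of 3-fold left 1 member higher, and a cutoff of 1.5-fold gave 3 lower. Apart from spike-in scaling, ALDOC, PC and PFKFB1 stayed at least 2-fold higher and SLC2A3 at least 2-fold lower under each of the other scalings, background corrections, filters and ways of combining spots and probes at the 2-fold cutoff. SLC2A3 did so at its dimmer probe too, while ALDOC, PC and PFKFB1 have 1 probe each. PCK2 was below 2-fold with normexp correction, median scaling, no scaling, the mean over probes or its dimmer probe. With the dimmer probe of the 11 genes that have 2, the sign changed for 3 and the side of the 2-fold limit for 2. Dim signals limit PFKFB1, PCK1, PDK4, FBP1, FBP2 and G6PC1, and no value holds the spread between cultures.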
